A study of Homo sapiens with 6 samples.

Results

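The genes described here encode NF-kappa-B subunits and the inhibitors that NF-kappa-B induces against itself. They were chosen by symbol: 10 genes were listed, and 9 of them stood on a row annotated with that gene alone, of 22412 genes tested. The tenth, BIRC3, which encodes an apoptosis inhibitor that ubiquitinates signalling proteins below TNF receptors, was not analysed here beyond its promoter. RNA came from SW480 cells, an established human line from a Dukes B colon adenocarcinoma, cultured in serum-containing medium. In one group the cells received 30 pmol of an siRNA against KHSRP, and in the other 30 pmol of a non-targeting scramble siRNA, in both cases with 2 µl of a lipid transfection reagent for 48 h. Each group had 3 arrays, described by the labels as biological replicates of this single line, and no cytokine or other NF-kappa-B stimulus is named for either group. KHSRP binds AU-rich elements in mRNAs and is known for recruiting the machinery that degrades them.

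NF-kappa-B is a family of dimeric transcription factors. In resting cells the dimers are held in the cytoplasm by I-kappa-B proteins, and signals from receptors such as those for TNF, interleukin-1 or lipopolysaccharide lead to degradation of the inhibitor and entry of the dimer into the nucleus. Among the genes then transcribed are the inhibitors themselves, so that the response limits its own duration, and several of these transcripts are short-lived and carry AU-rich elements.

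The siRNA target did not check the labels. The row for KHSRP, which is also annotated with the microRNA gene MIR3940, read 5.62, 5.60 and 5.56 on the log2 intensity scale in the arrays labelled KHSRP siRNA, against 5.75, 5.59 and 5.64 in the arrays labelled scramble siRNA. The groups overlapped, with a fitted difference of -0.07 on the log2 scale (limma SE 0.08, adjusted p = 0.804, exact permutation p = 0.3, two-sided). Groups are therefore named below by their labels alone. Array medians ran from 4.30 to 4.38. Colon epithelial markers were present, with 7 of 11 above 4.73, the 95th percentile of the 366 olfactory receptor genes, which stand here for genes expected to be silent. KRT20, CDX1, CDH17 and GPA33 were not above it. The mean level of the 11 epithelial markers lay between 7.34 and 7.42 in arrays labelled KHSRP siRNA and between 7.16 and 7.22 in arrays labelled scramble siRNA. None passed the test used below. At an unadjusted p under 0.05 (limma), 4 were higher and 0 lower, against 8.51% and 5.89% of all tested genes. The 4 were KRT8, KRT18, KRT19 and VIL1, at log2 fold changes of 0.58, 0.49, 0.55 and 0.28. The remaining markers lay between -0.09 (CDX2) and 0.11 (KRT20), and the median of the list was 0.08. The part of this difference in epithelial markers in the results below was not tested. Of the markers of other cell types, 2 of 9 for leukocytes (LYZ and CD68), 1 of 7 for fibroblasts (ACTA2) and 0 of 5 for endothelium lay above that level. The mean level of the leukocyte list lay between 4.08 and 4.23 in arrays labelled KHSRP siRNA and between 4.13 and 4.14 in those labelled scramble siRNA.

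Most of the promoters that could be read hold a match to the kappa-B consensus, the DNA sequence that NF-kappa-B dimers bind. The inhibitors were listed as genes that NF-kappa-B induces, so the share of matches is not independent of the choice. The same holds for the list of other NF-kappa-B target genes. The consensus was searched as GGGRNNYYCC (R is A or G, Y is C or T, N is any base). Kappa-B-like sequences outside this pattern were not counted. Both strands were read in the RefSeq promoter windows (GRCh38.p14), which span 250 bases before to 50 after each annotated start. Windows were found for 8 of the 10 genes, RELB and NFKBIE having none, and 8 of their 13 windows (61.5%), from 6 of these genes, held a match. Of all 35116 windows 11.3% did. The share was 55.6% (5 of 9 windows) for the other genes of the Rel and I-kappa-B family and 43.9% (18 of 41) for a list of other NF-kappa-B target genes. It was 28.6% (6 of 21) for other negative regulators, 17.4% (4 of 23) for ligands and receptors and 9.68% (3 of 31) for genes of the signalling chain above NF-kappa-B. A match is a description of these letters and not evidence of binding in SW480 cells. The windows of 4 genes are printed 5′ to 3′ on the gene's strand with the matches in capitals, to show where they lie in the promoters of the main inhibitor, of both precursor subunits and of the ubiquitin-editing inhibitor.
NFKBIA: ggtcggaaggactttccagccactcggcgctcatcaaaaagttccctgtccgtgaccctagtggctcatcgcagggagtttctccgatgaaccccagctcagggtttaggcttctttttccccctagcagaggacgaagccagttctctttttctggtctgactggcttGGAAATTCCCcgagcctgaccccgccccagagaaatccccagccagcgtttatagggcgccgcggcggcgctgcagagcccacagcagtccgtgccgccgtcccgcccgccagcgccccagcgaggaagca
NFKB1: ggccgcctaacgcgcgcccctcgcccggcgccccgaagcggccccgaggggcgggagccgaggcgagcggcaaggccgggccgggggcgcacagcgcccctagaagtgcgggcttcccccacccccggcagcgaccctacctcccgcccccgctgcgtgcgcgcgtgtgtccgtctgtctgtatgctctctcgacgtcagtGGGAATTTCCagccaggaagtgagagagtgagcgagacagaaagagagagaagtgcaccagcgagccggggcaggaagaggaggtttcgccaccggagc
NFKB2: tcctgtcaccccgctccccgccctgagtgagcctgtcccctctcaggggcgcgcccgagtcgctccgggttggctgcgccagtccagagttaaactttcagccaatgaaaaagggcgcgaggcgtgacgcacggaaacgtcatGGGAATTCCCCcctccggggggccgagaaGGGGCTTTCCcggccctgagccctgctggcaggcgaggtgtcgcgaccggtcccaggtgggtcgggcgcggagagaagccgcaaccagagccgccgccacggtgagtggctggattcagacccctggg
TNFAIP3: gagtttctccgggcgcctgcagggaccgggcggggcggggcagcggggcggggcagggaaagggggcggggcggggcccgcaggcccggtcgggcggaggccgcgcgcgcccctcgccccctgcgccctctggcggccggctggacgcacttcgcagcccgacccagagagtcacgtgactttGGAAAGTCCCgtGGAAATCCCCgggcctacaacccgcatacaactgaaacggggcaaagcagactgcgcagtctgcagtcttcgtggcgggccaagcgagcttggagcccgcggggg

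The NFKBIA window, chr14:35404700-35404999 on the minus strand, had 1 match that begins 81 bases before the start. The first of the NFKB1 windows, chr4:102501109-102501408 on the plus strand, had 1 match beginning 49 bases before the start. The NFKB2 window shown, chr10:102394328-102394627 on the plus strand, had matches beginning 107, 106 and 78 bases before the start, of which the first pair overlap and read as a single run. The TNFAIP3 window, chr6:137867009-137867308 on the plus strand, had matches beginning 67 and 55 bases before the start. The third NFKB2 window had matches at 176 and 21 bases before the start. NFKBIZ had 1 match in each of its windows, at 223 and 239 bases before the start, and BIRC3 had matches at 199 and 135 bases. The windows of RELA and ZC3H12A held none, nor did the second NFKB1 window or the first NFKB2 window.

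**Figure D1:**
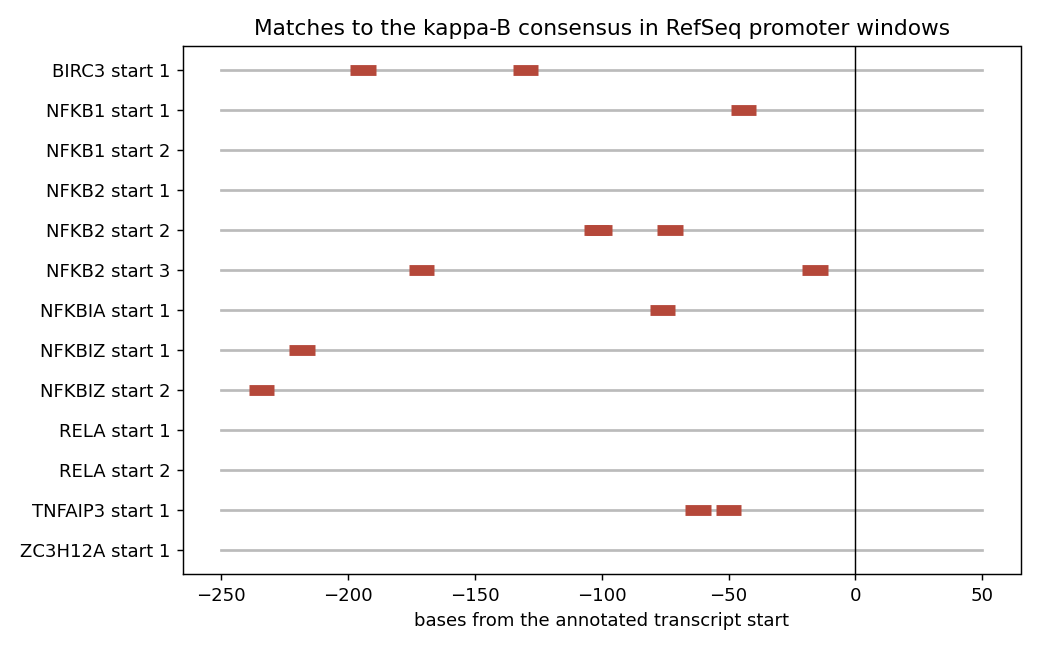
Each grey line is a RefSeq promoter window, the horizontal axis gives bases from the annotated transcript start, and red blocks are matches to the kappa-B consensus on either strand. Of the 13 windows 8 hold a match, all of them before the start.

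In the comparison of the siRNAs, none of the 9 measured genes passed the test over all genes (limma, adjusted p under 0.05), against 0.759% of all tested genes (0.509% higher and 0.250% lower). At an unadjusted p under 0.05 there were 2, against 14.4% of all tested genes, and the same 2 were those whose groups did not overlap, against 19.4% of all tested genes (11.6% higher and 7.82% lower). These were NFKBIA, higher, and NFKB1, lower in the arrays labelled KHSRP siRNA. The median log2 fold change of the 9 genes was 0.07, beside 0.02 over all tested genes, and 5 of the 9 were fitted above 0. NFKBIA was at 1.38 times the scramble level and NFKB1 at 72.5% of it, and the other 7 lay closer to no difference. In bulk RNA a change in every cell and a change in some of the cells cannot be told apart.

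**Figure D2:**
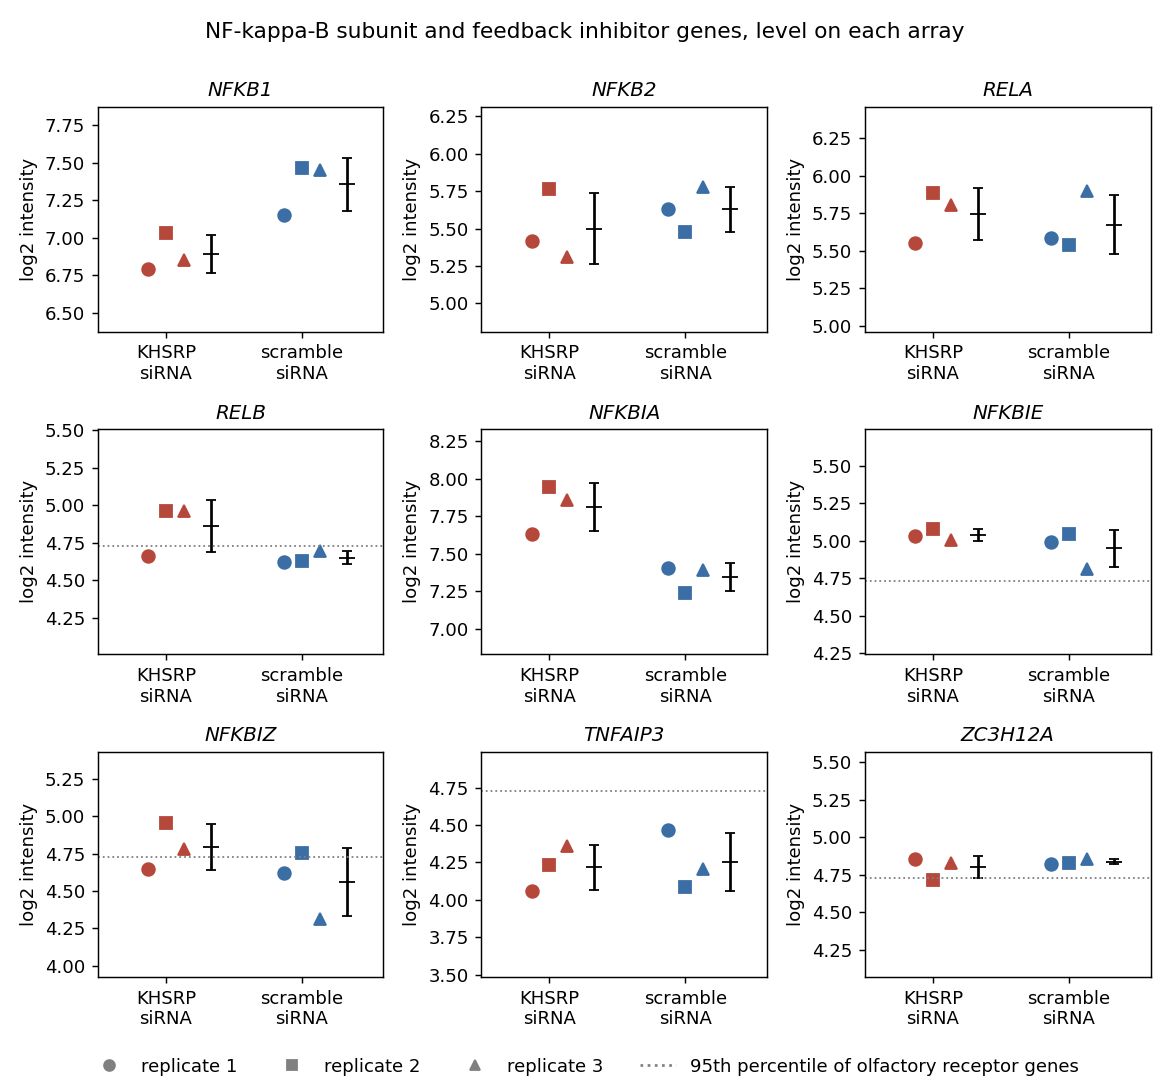
Log2 intensity of the 9 measured genes on each array, with a panel per gene spanning the same range of log2 units. Red symbols are arrays labelled KHSRP siRNA, blue symbols arrays labelled scramble siRNA, symbol shapes give the replicate number, and black bars give mean ± SD. The groups separate for NFKB1 and NFKBIA and overlap in the other 7 panels.

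Among the subunits, NFKB1 encodes a precursor that acts as an inhibitor and is processed to a DNA-binding subunit of the canonical dimer. It read 6.79, 7.03 and 6.85 in the arrays labelled KHSRP siRNA, against 7.15, 7.46 and 7.45 in those labelled scramble siRNA. All 3 arrays labelled KHSRP siRNA lay below all 3 labelled scramble siRNA, the nearest pair 7.03 and 7.15. The means were 6.89 ± 0.13 and 7.35 ± 0.18 (SD, n = 3 each), a log2 fold change of -0.46 (SE 0.12) with a limma adjusted p of 0.128. The 95% confidence interval of its level ran from 60.0% to 87.8% of the scramble level, before any adjustment for the number of genes. The exact permutation p was 0.1, the smallest that 3 arrays against 3 allow.

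RELA, the activating partner of the canonical dimer, read 5.55, 5.88 and 5.80 in the arrays labelled KHSRP siRNA, against 5.58, 5.54 and 5.90 in those labelled scramble siRNA. The groups overlapped over almost their whole range. Its log2 fold change of 0.07 (SE 0.13) had a limma adjusted p of 0.893, with an interval from 84.8% to 130.4% of the scramble level. It ran from 0.004 without KHSRP siRNA replicate 2 to 0.18 without scramble siRNA replicate 3.

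NFKB2 and RELB form the dimer of the non-canonical pathway, in which the NFKB2 precursor is processed after signals such as lymphotoxin. NFKB2 read 5.42, 5.76 and 5.31 in the arrays labelled KHSRP siRNA, against 5.63, 5.48 and 5.78 in those labelled scramble siRNA. Replicate 2 of the first group lay within the scramble range and the others below it, and the groups differed by -0.13 on the log2 scale (SE 0.14, limma adjusted p = 0.781). It was -0.26 without KHSRP siRNA replicate 2 and -0.04 without KHSRP siRNA replicate 3. RELB read 4.66, 4.96 and 4.96 in the arrays labelled KHSRP siRNA, against 4.62, 4.63 and 4.70 in those labelled scramble siRNA. Replicates 2 and 3 of the first group were above the scramble arrays and replicate 1 was among them. The groups differed by 0.21 on the log2 scale (SE 0.10, limma adjusted p = 0.428), and the scramble mean of 4.65 lay under the olfactory receptor level of 4.73.

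NFKBIA encodes I-kappa-B alpha, the inhibitor that is degraded and then resynthesised most rapidly when NF-kappa-B is activated. It read 7.63, 7.95 and 7.86 in the arrays labelled KHSRP siRNA, against 7.40, 7.24 and 7.39 in those labelled scramble siRNA. All 3 arrays of the first group lay above all 3 of the second. The means were 7.81 ± 0.16 and 7.34 ± 0.09 (SD, n = 3 each), and the log2 fold change of 0.47 (SE 0.11) had a limma adjusted p of 0.101. The fold was 1.38, with a 95% confidence interval from 1.16 to 1.65 before adjustment, and the exact permutation p was again 0.1. With array weights, which down-weight arrays that deviate most from their group, NFKBIA was at 0.49 (adjusted p = 0.0479) and NFKB1 at -0.52 (adjusted p = 0.0450), both past the threshold, in a fit that called 3.14% of all tested genes. Over all 14 alternatives the adjusted p ran from 0.0479 to 0.298 for NFKBIA and from 0.0450 to 0.345 for NFKB1. The direction of each was the same throughout, but most of these fits could not have changed it. Groups that do not overlap keep their direction when a single array is left out. The replicate block, the filter on dim genes, the intensity trend and the mean rows left both fold changes as they were.

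The genes most like NFKBIA across the 6 arrays, among 11205 genes above the median level, were SEMA6B (Pearson r = 0.994, Spearman rho = 1), ARHGEF38 (r = 0.992, rho = 0.943) and RP9 (r = 0.991, rho = 1). These values describe 6 arrays that NFKBIA already divides by group. As the highest of a search through 11205 genes, they are high by selection, and shared regulation was not tested.

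The other I-kappa-B genes differed less. NFKBIE, which encodes I-kappa-B epsilon, a slower feedback inhibitor, read 5.03, 5.08 and 5.002 in the arrays labelled KHSRP siRNA, against 4.99, 5.04 and 4.81 in those labelled scramble siRNA. The groups overlapped, with scramble replicate 3 the lowest array. The groups differed by 0.09 on the log2 scale (SE 0.09, limma adjusted p = 0.765), with an interval from 91.9% to 122.9% of the scramble level. It ran from 0.02 without scramble siRNA replicate 3 to 0.14 without scramble siRNA replicate 2. NFKBIZ encodes a nuclear I-kappa-B protein that acts as a cofactor at some promoters, and its transcript is known to be unstable. It read 4.65, 4.95 and 4.78 in the arrays labelled KHSRP siRNA, against 4.62, 4.75 and 4.31 in those labelled scramble siRNA. The groups overlapped through KHSRP siRNA replicate 1 and scramble siRNA replicate 2, and the groups differed by 0.23 on the log2 scale (SE 0.14, limma adjusted p = 0.525). It was 0.11 without scramble siRNA replicate 3, the lowest array, and the scramble mean of 4.56 lay under the olfactory receptor level.

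TNFAIP3 encodes a ubiquitin-editing enzyme that restrains signalling below TNF receptors and Toll-like receptors. It read 4.06, 4.23 and 4.36 in the arrays labelled KHSRP siRNA, against 4.47, 4.09 and 4.21 in those labelled scramble siRNA. All 6 values lay under the olfactory receptor level of 4.73, so a difference was hardly measurable on this row. The groups differed by -0.04 on the log2 scale (SE 0.13, limma adjusted p = 0.954), and it was above 0 with array weights, without KHSRP siRNA replicate 1 and without scramble siRNA replicate 1. ZC3H12A encodes Regnase-1, an endonuclease that degrades inflammatory transcripts, among them its own. It read 4.86, 4.72 and 4.83 in the arrays labelled KHSRP siRNA, against 4.83, 4.83 and 4.86 in those labelled scramble siRNA. The scramble arrays were nearly level and KHSRP siRNA replicate 2 was the lowest of the 6, just under the olfactory receptor level of 4.73. The other arrays lay little above that level, which limits what this row could show. The groups differed by -0.04 on the log2 scale (SE 0.08, limma adjusted p = 0.913), with an interval from 85.9% to 110.6% of the scramble level, and it was 0.005 without KHSRP siRNA replicate 2.

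**Figure D3:**
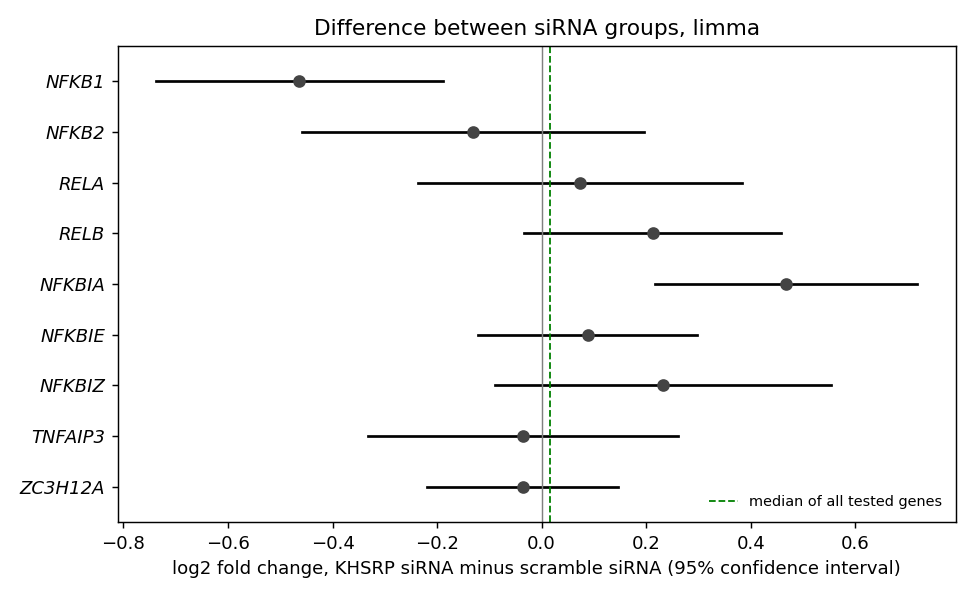
Log2 fold change (KHSRP siRNA minus scramble siRNA) of each measured gene, with limma's 95% confidence interval before adjustment. The intervals of NFKB1 (-0.46) and NFKBIA (0.47) do not reach 0, those of the other 7 genes include it, and the dashed line marks the median of all tested genes, 0.02.

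Several of these genes deviated together on single arrays. In KHSRP siRNA replicate 1 only 1 of the 9 genes, ZC3H12A, was above its own group mean, while 56.7% of all tested genes were. In KHSRP siRNA replicate 2 there were 8 of 9 above it, ZC3H12A being the exception, while 41.3% of all tested genes were. The median deviation of the 9 genes was -0.14 in replicate 1 and 0.13 in replicate 2 of that group, and between -0.02 and 0.05 in the 4 other arrays. NFKBIA followed this pattern, and its log2 fold change was 0.56 without KHSRP siRNA replicate 1 (adjusted p = 0.0590) and 0.40 without KHSRP siRNA replicate 2 (adjusted p = 0.203). NFKB1 was at -0.41 and -0.53 in the same fits. Such deviations were not particular to the 9 genes. In the arrays labelled KHSRP siRNA, CYLD, TAX1BP1, ITCH and TLR4 of the other lists were also lowest in replicate 1 and highest in replicate 2. COMMD1 and RNF11 were instead lowest in replicate 2. Within a group the deviations of a gene cancel out, so the low and high arrays are not separate observations. The cause of these differences between arrays was not tested.

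**Figure D4:**
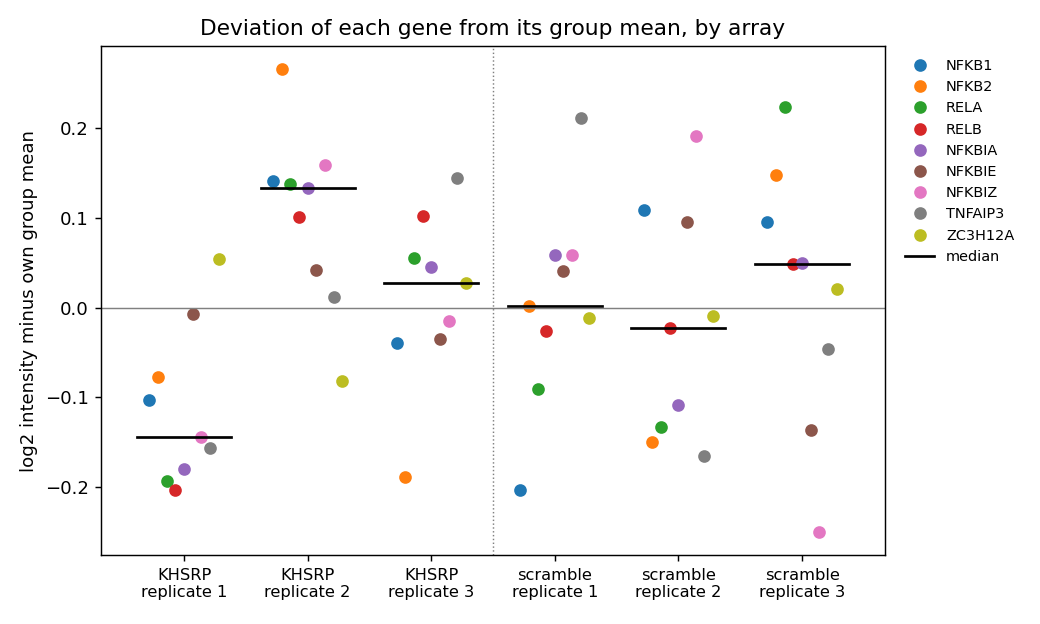
Log2 intensity of each of the 9 genes minus the mean of its own siRNA group, by array, with a black line at the median of the 9. Values in KHSRP siRNA replicate 1 lie mostly below 0 (median -0.14) and in KHSRP siRNA replicate 2 mostly above 0 (median 0.13).

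The wider pathway was described by 5 gene lists with 82 measured genes, of which 3 passed the test over all genes, each of them higher in the arrays labelled KHSRP siRNA, against 0.759% of all tested genes (0.509% higher). They were TLR4, LCN2 and COMMD1. TLR4, the receptor for lipopolysaccharide, read 7.21, 7.74 and 7.65 in the arrays labelled KHSRP siRNA, against 6.55, 6.65 and 6.51 in those labelled scramble siRNA. The groups were well apart, and TLR4 rose 1.95-fold (log2 fold change 0.96, SE 0.14, limma adjusted p = 0.0473). It was the only 1 of 16 measured ligand and receptor genes to pass, and 10 of the 16 had a mean no higher than the olfactory receptor level, among them TNF, IL1R1 and TLR2. The level of TNFRSF1A, the main TNF receptor of epithelial cells and named after its values were seen, was 8.63 ± 0.10 in the arrays labelled KHSRP siRNA and 8.47 ± 0.06 in those labelled scramble siRNA (SD, n = 3 each), a log2 fold change of 0.16 (SE 0.09, adjusted p = 0.456).

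LCN2, which encodes an iron-siderophore-binding protein induced by NF-kappa-B in epithelia, read 6.42, 6.67 and 6.89 in the arrays labelled KHSRP siRNA, against 5.86, 5.86 and 5.91 in those labelled scramble siRNA. It rose 1.72-fold (log2 fold change 0.78, SE 0.12, limma adjusted p = 0.0473). It was 1 of 27 measured target genes, of which 5 were higher and 0 lower at an unadjusted p under 0.05, against 8.51% higher and 5.89% lower of all tested genes. The chemokine genes CCL20 and CXCL8, among these 5 and named after their values were seen, were at 0.33 on the log2 scale (adjusted p = 0.160, SE 0.09) and 0.30 (adjusted p = 0.190, SE 0.09). CXCL10, also named after its values were seen, was at -0.31 (adjusted p = 0.358, SE 0.13). All 3 chemokine genes lay under the olfactory receptor level in both groups. So did PLAU, another of the 5 higher genes and also named after its values were seen. Of the 27 target genes, 16 had a mean no higher than that level. The target SDC4, a cell-surface proteoglycan gene also named after its values were seen, read 8.76, 11.13 and 10.97 in the arrays labelled KHSRP siRNA, against 9.07, 8.98 and 9.03 in those labelled scramble siRNA. KHSRP siRNA replicate 1 was the lowest of the 6 arrays and the other replicates were far above the scramble arrays, so the log2 fold change of 1.26 had an SE of 0.57 (adjusted p = 0.387).

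COMMD1, which promotes the removal of RELA from chromatin, read 6.85, 6.68 and 6.91 in the arrays labelled KHSRP siRNA, against 6.30, 6.20 and 6.15 in those labelled scramble siRNA. It rose 1.52-fold (log2 fold change 0.60, SE 0.09, limma adjusted p = 0.0473). It was 1 of 16 measured negative regulators outside the 9 genes, of which 5 were higher and 1 lower at an unadjusted p under 0.05, against 8.51% and 5.89% of all tested genes. The 1 lower was OTULIN, a deubiquitinase of linear ubiquitin chains named after its value was seen, at 7.54 ± 0.32 in the arrays labelled KHSRP siRNA and 8.22 ± 0.28 in those labelled scramble siRNA (SD, n = 3 each). Its log2 fold change was -0.67 (SE 0.20, adjusted p = 0.175). The list median was 0.16, and 0.05 without KHSRP siRNA replicate 2.

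These 3 calls depended on the arrays, the scaling and the model used. Across the 14 alternatives COMMD1 passed in 3, TLR4 in 4 and LCN2 in 4, with adjusted p up to 0.175, 0.169 and 0.169. Their log2 fold changes stayed between 0.54 and 0.67 for COMMD1, between 0.86 and 1.13 for TLR4 and between 0.67 and 0.90 for LCN2.

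Genes of the signalling chain had none past the test among 18 measured (limma), with a median log2 fold change of -0.01. At an unadjusted p under 0.05 there were 1 higher and 1 lower, near the 8.51% and 5.89% of all tested genes. The adaptor of Toll-like and interleukin-1 receptors, MYD88, was at 5.13 ± 0.08 in the arrays labelled KHSRP siRNA and 5.34 ± 0.06 in those labelled scramble siRNA (SD, n = 3 each), with an adjusted p of 0.299. BIRC2, a close relative of BIRC3, read 8.76, 9.18 and 9.41 in the arrays labelled KHSRP siRNA, against 8.69, 8.83 and 8.54 in those labelled scramble siRNA. The groups overlapped and the log2 fold change was 0.43 (SE 0.17, adjusted p = 0.310). The kinase gene CHUK was at -0.23 (SE 0.10, adjusted p = 0.348). In the remaining Rel and I-kappa-B family none of 5 passed (limma, and 0 at an unadjusted p under 0.05), with NFKBIB at -0.20 (SE 0.10), REL at -0.23 (SE 0.19) and BCL3 at 0.08 (SE 0.09). The means of NFKBIB and BCL3 lay under the olfactory receptor level in both groups. A mean no higher than that level was found for 3 of the 5 genes.

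**Figure D5:**
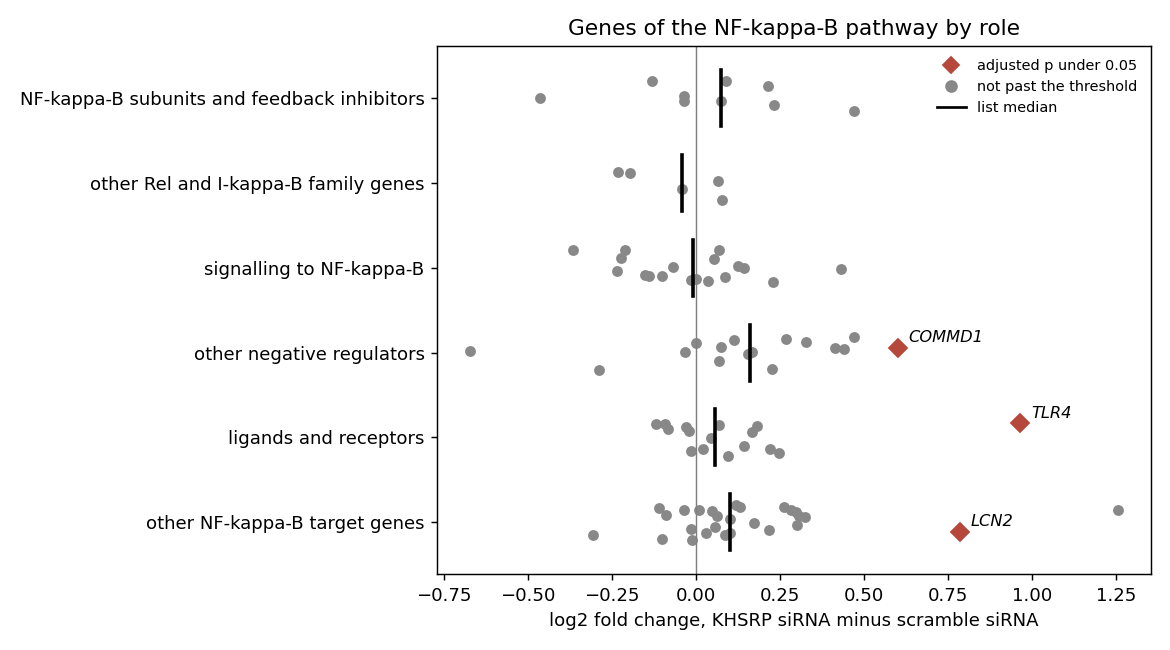
Log2 fold change (KHSRP siRNA minus scramble siRNA) of each measured gene, by list, with black bars at list medians. Red diamonds mark the genes past limma's adjusted threshold, TLR4 (0.96), LCN2 (0.78) and COMMD1 (0.60), and grey points the genes that did not pass, including all 9 subunit and feedback inhibitor genes.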

How the data were processed

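Values were the log2 intensities that the authors deposited, 70523 rows for 6 arrays. RMA, Affymetrix Expression Console and Transcriptome Analysis Console on hg19 are named in the submitters' processing notes. The sources used here give no versions. RMA corrects background, normalizes by quantiles and summarises probes, and it can compress the changes of dim genes. Maxima of the deposited values near 19.9 leave a further transform of the scale possible. The number of arrays, which carry no depth, limits the precision.

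Gene names came from the platform annotation and were updated through a RefSeq table of GRCh38.p14. Rows with 1 symbol (23781) were used, and the 1543 with several were left out except that of KHSRP. Per gene, the row with the highest mean was kept. The arrays labelled KHSRP siRNA were set against those labelled scramble siRNA in limma 3.58.1 (R 4.3.3, lmFit and eBayes), two-sided, with Benjamini-Hochberg adjustment over 22412 genes. The fit was also run on simulated data with independent noise and changes larger than any described here. That run therefore does not show how the fit performs for changes of the size described here. The members and lists were chosen with earlier results of these data known. Named were all members, the called genes of each pathway list or otherwise the 3 with the smallest p, and the 3 genes most like the leading member. Nothing in the labels says whether replicates came from separate passages, so p-values measure the spread between these samples. The alternatives were a replicate block, renewed quantile normalization, median centring, a filter on dim genes, an intensity trend with robust prior, mean rows, the array median as covariate, array weights and each array left out.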

Additional observations from a re-analysis of the deposited data

How the results depend on the processing

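None of the 9 genes passed in the main limma fit (2 at an unadjusted p under 0.05). Array weights gave 2, NFKB1 and NFKBIA, and the 13 other alternatives gave 0. Their median ran from 0.005 to 0.09 over all alternatives. Among genes above the median level only 6 of the 9 were left (median 0.02), without RELB, NFKBIZ and TNFAIP3. Among the 9 genes signs changed only for TNFAIP3, to 0.051 with array weights and within a range of -0.12 to 0.070 when single arrays were left out, and for ZC3H12A, which ran from -0.064 to 0.0046 when single arrays were left out. The fold change of KHSRP ran from -0.12 to -0.02. Over all genes, the 170 calls (114 higher and 56 lower) became 32 after quantile normalization again (11 higher and 21 lower), 0 after median centring (limma, 3111 at an unadjusted p under 0.05), 433 among genes above the median level, 0 with the intensity trend and robust prior (3097), 0 with the array median as covariate (3412) and 704 with array weights. Leaving out single arrays gave between 0 and 329, the most without KHSRP siRNA replicate 1, and 1 without scramble siRNA replicate 1; the 4 fits with 0 had 2372 to 3081 genes at an unadjusted p under 0.05. The 3 pathway calls became 0 under the block, quantile normalization again, median centring, the intensity trend and the array median, and between 0 and 4 when single arrays were left out (11 to 20 at an unadjusted p under 0.05 in these fits). The labels do not say whether same-numbered arrays were paired. Correlations of the deviations of same-numbered arrays were 0.16, 0.06 and -0.08, and those of different-numbered arrays ran from -0.21 to 0.18. With 3 arrays per group these values cannot settle whether the arrays were paired. With the replicate number as a block, 1 gene was called in place of 170, 0 of the 9 genes and 0 pathway genes. The median of all genes was 0.02, or -0.005 when quantiles were normalized again and -0.007 under median centring. Dim rows (RELB, NFKBIZ, TNFAIP3), and that of ZC3H12A close to the olfactory receptor level, limit what could be seen.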
